A study of Rattus norvegicus with 5 samples.

Results

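The genes described here are 10 genes known from the response of neurons to axon injury and from axon regrowth: Atf3, Sprr1a, Gap43, Sox11, Gadd45a, Reg3b, Ecel1, Flrt3, Tnfrsf12a and Arg1. They were chosen by name, as the rows of the deposited count table whose gene symbol equals one of these names, and all 10 were found among 17321 rows. Sprague Dawley rats were operated on, and on day 9 RNA was sequenced from the lumbar dorsal horn (segments L4-L6). The groups were 3 CCI libraries and 2 SHAM libraries. By common usage CCI stands for chronic constriction injury, a model of neuropathic pain with loose ligatures around a peripheral nerve, and SHAM animals have surgery with no ligature. The labels give no age, sex or genotype, and do not say whether each library is 1 animal, so the p-values rest on a spread among libraries that may be only technical.

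When a peripheral axon is cut or crushed, its neuron turns on a programme that rebuilds the axon: transcription factors such as ATF3 and SOX11 are made in the cell body, and growth cone and surface proteins follow. The programme is best known in sensory neurons of the dorsal root ganglion and in spinal motor neurons, whose axons run in the nerve. The dorsal horn receives the central branches of sensory neurons but not their cell bodies, and most of its own neurons send no axon into the nerve.

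Each library held 20053353 to 23673198 estimated counts, enough to test 13478 genes. The share of ribosomal rows was 16% in CCI 3 and between 2.18% and 2.71% elsewhere. Slc17a6 encodes the vesicular glutamate transporter of dorsal horn excitatory neurons. It was at 294, 342 and 292 CPM (counts scaled to library size) in CCI 1 to 3. In SHAM 1 and 2 it was at 314 and 297 CPM, so this marker was present in each library. Motor neuron markers were present too, with summed levels of 971 and 710 CPM in SHAM. The presence of Slc17a6 therefore does not show that the samples held dorsal horn only. Of 9 markers of dorsal root ganglion neurons, Mrgprd, a receptor of nociceptors, had no count in any library. Scn10a, a sodium channel of nociceptors, was at 0.318 to 0.477 CPM in CCI, against 0.318 and 0.55 CPM in SHAM. Others were present: P2rx3, an ATP receptor, was at 33.7, 27.4 and 39.4 CPM in CCI, against 32.6 and 30.1 CPM in SHAM, and Calca, which encodes the peptide CGRP and is also made by motor neurons, at 81.2, 10.2 and 47.7 CPM in CCI, against 85.8 and 67.5 CPM in SHAM, both with fractional counts. Avil was at 18.7 to 23.1 CPM in CCI, against 23.4 and 12.2 CPM in SHAM, and Scn11a, Trpv1 and Isl2 were at 0.159 to 3.25 CPM over all libraries. All of these but Scn10a are named outside the rule for naming genes, with their values known.

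Atf3 showed the largest fitted difference of the 9 members tested, without passing the test, and Reg3b was the only member that did pass; the other 7 tested members differed by less than 1.5-fold in their fitted values. Calls are from edgeR's quasi-likelihood test, with p adjusted over all 13478 genes, and a gene passed at an adjusted p of at most 0.05 with a fold of at least 1.5. Of all tested genes 2.59% were called higher in CCI and 0.26% lower, against 1 member higher and 0 lower of 9 tested. Unadjusted p was under 0.05 for 2 members, Atf3 and Reg3b, and stood at 0.0503 for Ecel1. Ecel1 ranked 2162 by p among all 13478 tested genes, so slightly fewer genes than that had an unadjusted p under 0.05. Counts of list genes at an unadjusted p under 0.05, given below, are to be read beside that share. The likelihood ratio test of edgeR and DESeq2 each called 2 members higher, Atf3 and Reg3b, and limma-voom called 0. Sprr1a fell below the filter on low counts and was not called with no such filter.

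**Figure D1:**
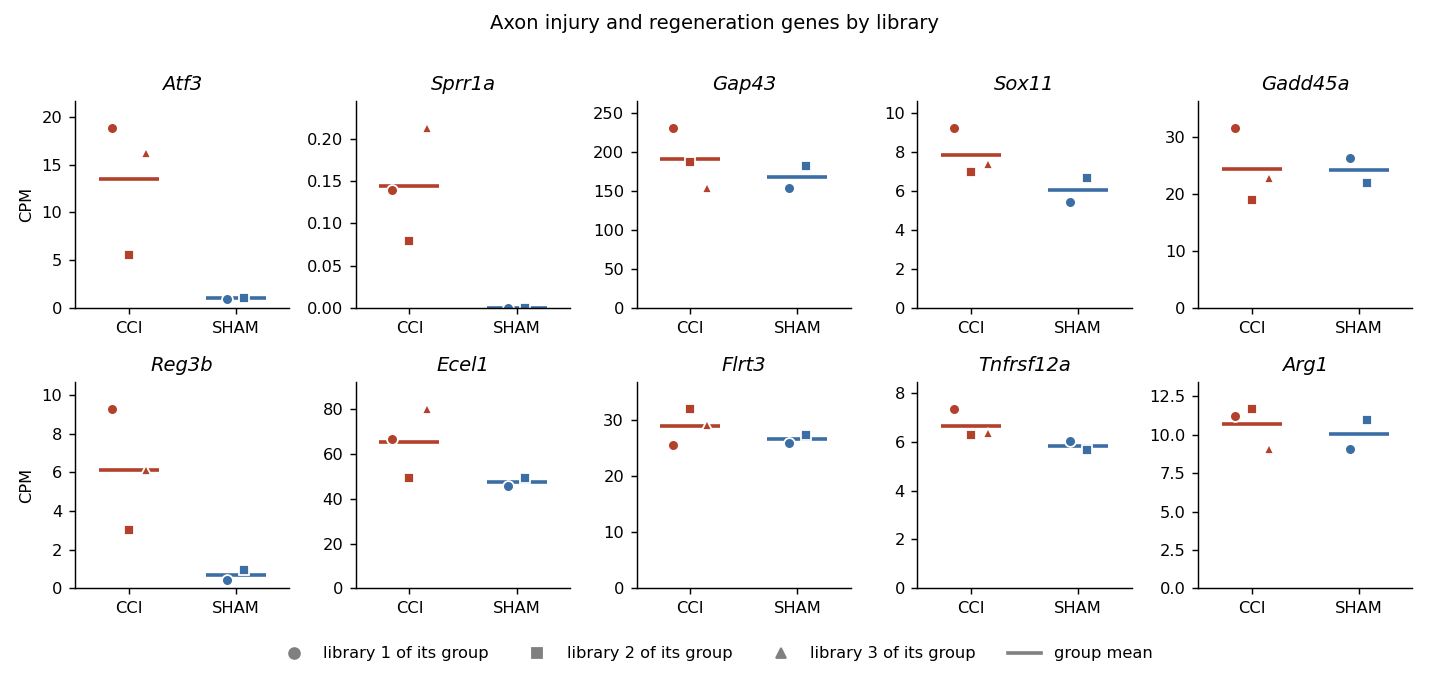
Level of each of the 10 genes in CPM (vertical axes, each from 0) in the 3 CCI and 2 SHAM libraries, with 1 point per library and a line at the group mean. The CCI points of Atf3 and Reg3b stand well above both SHAM points and are widely spread, while those of Gap43, Gadd45a, Ecel1, Flrt3 and Arg1 overlap with SHAM.

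Atf3 encodes a stress-induced transcription factor of the ATF/CREB family that is nearly silent in intact neurons and is widely used as a marker of axotomised ones. It had 406, 141 and 306 counts in CCI 1, CCI 2 and CCI 3 and 20 and 22 counts in SHAM 1 and SHAM 2. On the CPM scale these were 18.8, 5.60 and 16.2 in CCI and 0.909 and 1.10 in SHAM. All 3 CCI libraries were above both SHAM libraries, but CCI 2 held less than the other two. The mean was 13.5 ± 6.995 CPM in CCI (SD, n = 3) and 1.004 ± 0.134 CPM in SHAM (SD, n = 2). The log2 fold change was 3.74 (SE 0.66, 13.4-fold, 95% interval 4.27 to 42.1-fold), with an adjusted p of 0.0542, just over the threshold. It ranked 53 of all tested genes by fold and 432 by p. A two-sided exact permutation test of log2(CPM + 0.5) gave p = 0.1, the smallest that the 10 possible divisions of 5 libraries allow.

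Whether Atf3 passed depended on single libraries and on the test, while its log2 fold change stayed between 3.43 and 4.12 with 1 library left out. With CCI 2 left out, the log2 fold change was 4.12 (SE 0.24, adjusted p = 1.7e-06), and without CCI 1 it was 3.43 (adjusted p = 0.0383); in both cases Atf3 passed. It did not pass without CCI 3 (log2 fold change 3.59, adjusted p = 0.108), without SHAM 1 (3.61, adjusted p = 0.454) or without SHAM 2 (3.87, adjusted p = 0.318).

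Reg3b encodes a secreted C-type lectin, also called pancreatitis-associated protein, that in rats appears in sensory and motor neurons after nerve injury. It had 201, 76 and 115 counts in CCI 1 to 3 and 10 and 19 counts in SHAM. These were 9.30, 3.02 and 6.10 CPM in CCI, against 0.455 and 0.949 CPM in SHAM, so the groups did not overlap. The order of the CCI libraries was that of Atf3, with CCI 1 highest and CCI 2 lowest. Reg3b rose by 3.13 on the log2 scale (SE 0.59, 8.74-fold, 95% interval 3.36 to 22.7-fold, adjusted p = 0.0376; exact permutation p = 0.1). The call was lost without CCI 3 (adjusted p = 0.106), without SHAM 1 (0.398) and without SHAM 2 (0.208), and with the level of Schwann cell markers as a covariate (0.11) or limma-voom (0.104); the log2 fold change stayed between 2.68 and 3.72. The fold rests on few SHAM counts.

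Sprr1a encodes a small proline-rich protein first known from the cornified envelope of skin, which in injured sensory neurons is made in large amounts and promotes axon outgrowth. It had 3, 2 and 4 counts in CCI 1 to 3 and 0 in both SHAM libraries. Those 9 counts lie at 0.139, 0.0794 and 0.212 CPM, while a count of 0 allows up to 0.136 CPM in SHAM 1 and 0.15 CPM in SHAM 2 (3 counts, for counting error only). No fold is given, since both groups lie at or near that limit, and a difference was not detectable at this depth.

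The 250 bases before the start of transcription are shown for Reg3b and Sprr1a. These genes were picked from these same counts, which lay mainly or wholly in the CCI libraries, as for Atf3. The matches are therefore no support for a change in CCI, and for Sprr1a a difference was not detectable at this depth. AP-1 and CRE-like elements are the kinds of site that ATF3 and its JUN partners bind. The sequences are from RefSeq on the build GRCr8, 5′ to 3′ on the gene's strand, for chr4:112419526-112419775 (plus strand, Reg3b) and chr2:180752626-180752875 (minus strand, Sprr1a). Capitals mark matches to 3 motifs, each of which reads the same on both strands: the AP-1 motif TGANTCA, the CRE-like motif TGANNTCA and the STAT motif TTCNNNGAA.
Reg3b: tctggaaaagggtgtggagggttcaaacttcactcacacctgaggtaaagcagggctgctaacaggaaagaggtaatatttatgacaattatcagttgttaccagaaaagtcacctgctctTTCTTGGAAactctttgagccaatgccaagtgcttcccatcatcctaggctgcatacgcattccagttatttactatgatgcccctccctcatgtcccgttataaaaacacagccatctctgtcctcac
Sprr1a: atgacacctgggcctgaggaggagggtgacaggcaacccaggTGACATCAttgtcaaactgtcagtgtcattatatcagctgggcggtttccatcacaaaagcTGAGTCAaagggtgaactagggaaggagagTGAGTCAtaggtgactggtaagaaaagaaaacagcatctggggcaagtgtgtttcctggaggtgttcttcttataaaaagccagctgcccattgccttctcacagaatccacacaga
The Sprr1a window held 2 AP-1 matches, from 147 to 141 and from 117 to 111 bases before the start, and 1 CRE-like match from 208 to 201. The Reg3b window held 1 STAT match from 129 to 121 bases before the start and no AP-1 or CRE-like match. No match overlapped another. Of 7 members found in the promoter table (Sprr1a, Sox11, Gadd45a, Reg3b, Ecel1, Flrt3 and Tnfrsf12a), 1 held an AP-1 match, against 6.34% of all 33469 promoters of that length. A CRE-like match stood in 3 of the 7 (Sprr1a, Sox11 and Flrt3) and in 13.2% of all promoters, and a STAT match in 2 of the 7 (Reg3b and Tnfrsf12a) and in 7.67% of all. A match describes the letters only and is not a site of binding.

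Among the other transcription and stress regulators, neither member passed the test. Sox11, a SoxC transcription factor of immature neurons that is needed for sensory axon regrowth in mice, was at 9.21, 6.99 and 7.37 CPM in CCI, against 5.46 and 6.65 CPM in SHAM. Its groups did not overlap, but CCI 2 and SHAM 2 lay close together (log2 fold change 0.38, SE 0.20, adjusted p = 0.408; exact permutation p = 0.2). Gadd45a, a growth arrest and DNA damage gene that rises in injured sensory neurons, was at 31.6, 19.0 and 22.8 CPM in CCI, against 26.4 and 22.0 CPM in SHAM. CCI 1 was the highest library and CCI 2 the lowest, so SHAM lay inside the CCI range. Its log2 fold change was 0.014 (SE 0.21, adjusted p = 0.982), and the 95% interval ran from 0.714 to 1.43-fold, which leaves out a change of 1.5-fold in either direction.

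Of the growth cone and surface proteins, none passed. Gap43, a membrane protein of the growth cone that neurons raise during axon growth, was by far the most abundant member. It was at 230, 187 and 154 CPM in CCI, against 154 and 182 CPM in SHAM, with CCI 3 just below SHAM 1 (log2 fold change 0.18, SE 0.17, adjusted p = 0.639, 95% interval 0.86 to 1.49-fold). Flrt3, a leucine-rich repeat protein that binds latrophilin and UNC5 receptors and promotes neurite growth, was at 25.5, 31.96 and 29.0 CPM in CCI, against 25.9 and 27.3 CPM in SHAM. The lowest of the 5 values was from CCI 1 (log2 fold change 0.11, SE 0.13, adjusted p = 0.689, 95% interval 0.886 to 1.32-fold). Tnfrsf12a, the receptor Fn14 for the cytokine TWEAK, was at 7.36, 6.27 and 6.36 CPM in CCI, against 6.05 and 5.65 CPM in SHAM. Its groups did not overlap, by a margin smaller than the spread within CCI (log2 fold change 0.19, SE 0.19, adjusted p = 0.65).

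The 2 enzymes gave no call over all 5 libraries. Ecel1, a membrane metalloprotease of neurons also named DINE for its induction by nerve damage, was at 66.7, 49.0 and 80.2 CPM in CCI, against 45.6 and 49.4 CPM in SHAM. CCI 2 lay between the SHAM libraries and the other two CCI libraries above them. The log2 fold change was 0.46 (SE 0.20, adjusted p = 0.313, 95% interval -0.00072 to 0.92 on the log2 scale). Without CCI 2 it was 0.63 (SE 0.14) and passed, with an adjusted p of 0.023. Without CCI 3 it was 0.28 (SE 0.15, adjusted p = 0.486) and without CCI 1 0.44 (SE 0.23, adjusted p = 0.348), and it did not pass. With SHAM 1 left out the log2 fold change was 0.40, and with SHAM 2 left out 0.51. Ecel1 had fractional estimated counts, which arise where reads fit more than 1 row, so its values are uncertain; the other 9 members had whole counts. Arg1, arginase of the urea cycle, whose polyamine products aid axon growth and which also marks some macrophages, was at 11.3, 11.7 and 9.07 CPM in CCI, against 9.09 and 10.99 CPM in SHAM. The groups overlapped (log2 fold change 0.091, SE 0.18, adjusted p = 0.833).

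**Figure D2:**
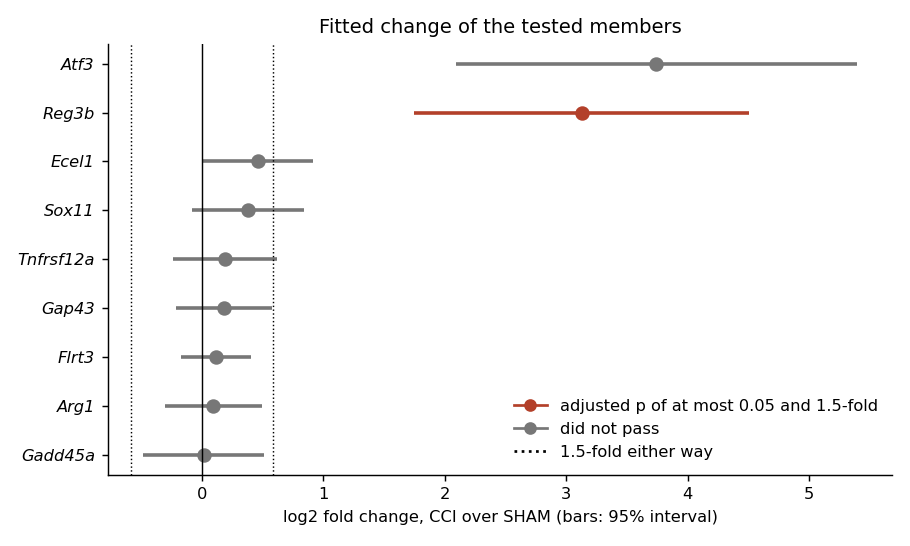
Fitted log2 fold change of CCI over SHAM (horizontal axis) with its 95% interval for the 9 tested members, with dotted lines at 1.5-fold in either direction. Atf3 at 3.74 and Reg3b at 3.13 stand apart from the others, which lie between 0.014 and 0.46; Reg3b alone passed.

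All 9 tested members had a fitted fold change above 0, although for Gadd45a, Flrt3 and Arg1 the sign turned in at least 1 alternative. In 4 of the 9 (Atf3, Reg3b, Sox11 and Tnfrsf12a), every CCI library was above every SHAM library, as was so for 18.6% of all tested genes. Per transcript length, in the authors' deposited TPM table, the members ranged widely in level. Gap43 had the highest mean level, at 175 ± 34.2 TPM in CCI and 152 ± 16.5 TPM in SHAM (SD, n = 3 and 2), followed by Gadd45a at 28.4 ± 7.15 TPM in CCI and 27.7 ± 3.90 TPM in SHAM. Flrt3, Tnfrsf12a, Arg1 and Ecel1 came next, with CCI means of 9.78 to 12.9 TPM and SHAM means of 7.22 to 11.7 TPM, in that order by the mean over all 5 libraries. Flrt3, at 11.3 to 14.4 TPM over the libraries, lay wholly above Tnfrsf12a (8.41 to 11.1 TPM) and Arg1 (8.24 to 10.8 TPM), while these and Ecel1 (6.93 to 12.5 TPM) overlapped. Reg3b averaged 12.9 ± 6.44 TPM in CCI and 1.46 ± 0.697 TPM in SHAM, and Atf3 9.31 ± 4.77 TPM in CCI and 0.68 ± 0.087 TPM in SHAM. Sox11 was at 5.09 ± 0.726 TPM in CCI and 3.85 ± 0.513 TPM in SHAM, and Sprr1a was last, at 0.163 to 0.422 TPM in CCI and listed at 0 in SHAM.

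The CCI libraries differed from each other, and no single order held for all members. CCI 1 was the highest CCI library for 6 of the 9 tested members and CCI 2 the lowest for 6, but these were not the same 6. Gap43 was highest in CCI 1 and lowest in CCI 3, and Ecel1 highest in CCI 3 and lowest in CCI 2. How often such orders occur among all tested genes was not counted. Against the SHAM mean, Atf3 was 18.7 times as high in CCI 1, 5.57 times in CCI 2 and 16.2 times in CCI 3, and Reg3b 13.2, 4.30 and 8.69 times. The ratio of the highest to the lowest CCI library was 3.36 for Atf3 and 3.08 for Reg3b, against a median of 1.21 over 12754 genes with a mean of at least 1 CPM and a count in every library. Only 1.59% of those genes had a ratio as large as that of Atf3, and 1.87% one as large as that of Reg3b. For the other 7 tested members it was 1.17 to 1.66.

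**Figure D3:**
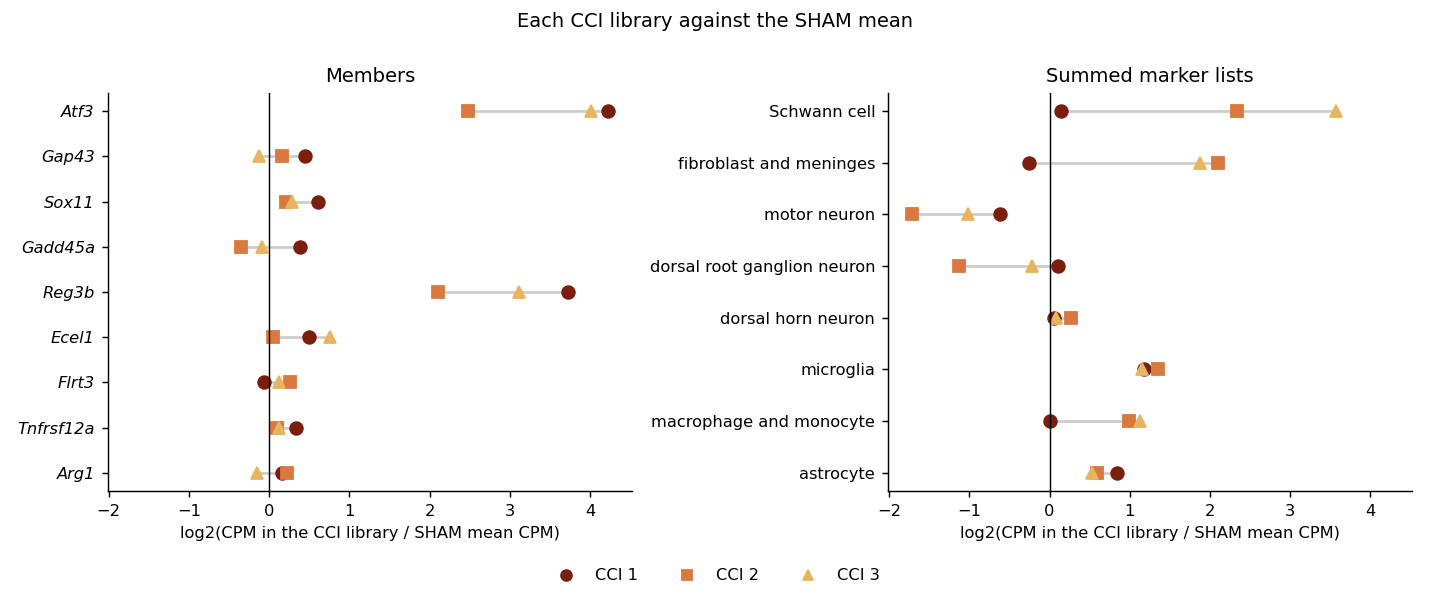
Log2 ratio of each CCI library to the SHAM mean (horizontal axes) for the 9 tested members, left, and for the summed CPM of 8 marker lists, right, with 1 symbol per library. Atf3 and Reg3b are highest in CCI 1 and lowest in CCI 2, while the Schwann cell and fibroblast lists are near the SHAM mean in CCI 1 and several times above it in CCI 2 and CCI 3.

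Markers of other cell types also moved with the groups or between the CCI libraries. In bulk tissue, a change in the number of cells of a type and a change in RNA per cell cannot be told apart. The summed level of 9 Schwann cell markers was 49.98, 230 and 537 CPM in CCI 1 to 3, against 37.7 and 53.0 CPM in SHAM, with 0 of 9 called. The 10 markers of fibroblasts and meninges summed to 171, 875 and 746 CPM in CCI, against 180 and 228 CPM in SHAM, with 0 of 10 called. Within these sums Pdgfra, which is not particular to fibroblasts, was at 89.97, 142 and 115 CPM in CCI. In SHAM it was at 93.0 and 92.1 CPM, so the sums in CCI 1 and SHAM rest largely on this marker. Pdgfra is named outside the rule for naming genes. Col3a1, a fibrillar collagen, was at 19.3, 417 and 265 CPM in CCI, against 22.2 and 36.8 CPM in SHAM. In CCI 1, where both Atf3 and Reg3b were highest, the Schwann cell sum lay between the SHAM libraries and that of fibroblasts below both. The 8 macrophage and monocyte markers in the table summed to 28.2, 56.1 and 61.5 CPM in CCI, against 26.8 and 29.6 CPM in SHAM. Of these 1 of 5 tested was called higher, against 2.59% of all tested genes. It was Cd68, at 5.65, 10.7 and 7.53 CPM in CCI, against 0.864 and 0.849 CPM in SHAM. Lyve1, with fractional counts, held much of the sum. It was at 13.8, 15.7 and 24.7 CPM in CCI, against 20.0 and 18.7 CPM in SHAM. Cd68 and Lyve1 are named outside the rule for naming genes. Cd163, a scavenger receptor of border macrophages, was at 2.04, 5.002 and 5.57 CPM in CCI, against 1.77 and 2.85 CPM in SHAM. Unadjusted p was under 0.05 for 2 Schwann cell and 2 fibroblast markers. Without CCI 1, 2 Schwann cell, 6 fibroblast and 3 macrophage markers were called higher, against 644 of all 13408 genes tested there. Without CCI 2, 1 Schwann cell and 1 macrophage marker were called higher, against 404 of 13353 genes. Without CCI 3, 1 macrophage marker was called higher, against 291 of 13371 genes. DESeq2 called 1 fibroblast and 2 macrophage markers, as did the likelihood ratio test, and without either SHAM library no marker of these 3 lists was called. The part of these cells in the Atf3 and Reg3b values of CCI 2 and CCI 3 was not tested.

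Motor neuron markers had a lower summed level in every CCI library than in SHAM. Among all tested genes 0.26% were called lower. The 9 of them summed to 548, 256 and 416 CPM in CCI, against 971 and 710 CPM in SHAM, and 5 of 9 fell; Chat, the enzyme that makes acetylcholine, was at 39.7, 25.9 and 36.0 CPM in CCI, against 77.1 and 60.2 CPM in SHAM, with fractional counts. CCI 2, the CCI library with the least Atf3 and Reg3b, also had the lowest motor neuron sum. No motor neuron marker was called without SHAM 1, without SHAM 2 or with the Schwann cell markers as a covariate, 2 were without CCI 3, and 3 were with no filter on low counts. The 9 dorsal root ganglion markers summed to 145, 61.8 and 116 CPM in CCI, against 151 and 119 CPM in SHAM. By edgeR's test 0 of 6 tested were called, with 1 at an unadjusted p under 0.05, and 1 was lower by DESeq2, without CCI 1 and without CCI 2. The 1 with an unadjusted p under 0.05 was Isl2, at 0.694, 0.159 and 0.424 CPM in CCI, against 1.955 and 1.949 CPM in SHAM (log2 fold change -2.21, adjusted p = 0.055). Which cells its counts came from was not tested. The 11 dorsal horn neuron markers summed to 1005, 1162 and 1027 CPM in CCI, against 904 and 1031 CPM in SHAM, with 0 of 11 called, 2 at an unadjusted p under 0.05, and 1 higher by DESeq2.

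Glial lists had higher sums in all CCI libraries. Among all tested genes 2.59% were called higher. The 7 microglia markers summed to 657, 744 and 648 CPM in CCI, against 276 and 307 CPM in SHAM, with 5 of 7 called higher; Cx3cr1, the fractalkine receptor of microglia, was at 70.5, 81.0 and 71.1 CPM in CCI, against 31.7 and 32.5 CPM in SHAM. The 8 astrocyte markers summed to 8228, 6925 and 6595 CPM in CCI, against 4651 and 4501 CPM in SHAM, with 5 of 8 called higher; Gfap, the astrocyte filament, was at 5110, 3971 and 3493 CPM in CCI, against 2100 and 1982 CPM in SHAM. Without SHAM 1, 3 microglia and 2 astrocyte markers were called, and without SHAM 2, 4 and 3. The part of motor neurons, microglia and astrocytes in the Atf3 and Reg3b values was not tested.

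Of 20 transcription factors linked to regeneration, 3 rose and none fell, while 2.59% of all tested genes were called higher and 0.26% lower. Their median log2 fold change was 0.26, against 0.013 for all tested genes. Cebpd, a C/EBP factor induced by cytokines through STAT3, was at 17.0, 11.2 and 12.6 CPM in CCI, against 3.27 and 3.05 CPM in SHAM (log2 fold change 2.10, SE 0.23, adjusted p = 0.00173). Klf6, a zinc finger factor that promotes axon growth in zebrafish and rodents, rose by 0.64 (SE 0.12, 69.0 ± 7.14 CPM in CCI, against 44.4 ± 2.62 CPM in SHAM), and Cebpb, another C/EBP factor, by 0.71 (SE 0.15, 19.0 ± 2.57 CPM in CCI and 11.6 ± 0.302 CPM in SHAM), with fractional counts. Jun, the partner of ATF3 in sensory neurons and named here outside the rule for naming genes with its values known, was at 72.2, 72.5 and 72.1 CPM in CCI, against 71.2 and 66.9 CPM in SHAM (log2 fold change 0.065, SE 0.096, adjusted p = 0.77). The number called was 4 without CCI 1, 1 without CCI 2 (1 without CCI 3 too) and 0 without either SHAM library.

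Of 22 tested peptides and signalling genes induced by injury, 2 rose and none fell, while 2.59% of all tested genes were called higher. Their median log2 fold change was 0.33. Socs3, the feedback inhibitor of STAT3 signalling, was at 7.36, 4.33 and 4.93 CPM in CCI, against 0.818 and 1.25 CPM in SHAM (log2 fold change 2.42, SE 0.35, adjusted p = 0.00733). Osmr, the receptor chain for oncostatin M, was at 7.17, 9.61 and 7.48 CPM in CCI, against 4.14 and 2.85 CPM in SHAM (log2 fold change 1.21, SE 0.24, adjusted p = 0.034). The number called was 4 without CCI 1, 3 without CCI 2, 1 without CCI 3 and 0 without either SHAM library.

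Of 22 tested genes of the growth cone and axon cytoskeleton, 1 rose and 1 fell, and the median log2 fold change was -0.12. Among all tested genes 2.59% were called higher and 0.26% lower. Marcks, a membrane-linked substrate of protein kinase C that microglia also express, was at 350, 463 and 463 CPM in CCI, against 270 and 239 CPM in SHAM (log2 fold change 0.74, SE 0.14, adjusted p = 0.029). Cd24, a surface glycoprotein of immature neurons, fell to 64.1, 43.2 and 55.6 CPM in CCI, against 107 and 89.0 CPM in SHAM (log2 fold change -0.85, SE 0.17, adjusted p = 0.0376). Neither was called without CCI 3, SHAM 1 or SHAM 2, and without CCI 1 the list had 1 call higher and 2 lower.

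None of 16 tested stress and growth arrest genes passed (median log2 fold change -0.013), but 1 was called higher without CCI 2 and 1 lower without CCI 3. Among all tested genes 404 of 13353 were called higher without CCI 2, and 19 of 13371 lower without CCI 3. Of these the lowest p were those of Hmox1, haem oxygenase, at 12.03, 8.58 and 10.5 CPM in CCI, against 5.86 and 6.80 CPM in SHAM (adjusted p = 0.111), and Ddit3, the stress factor CHOP, at 20.9 ± 1.31 CPM in CCI, against 26.7 ± 2.997 CPM in SHAM (adjusted p = 0.211). Unadjusted p was under 0.05 for 3 of the 16, and neither DESeq2 nor the other tests run on all 5 libraries called any. None of 22 tested relatives and partners of the members passed by edgeR's test (median log2 fold change 0.029), 5 had an unadjusted p under 0.05, and no alternative called any. Lowest in p were Ece1, a protease related to Ecel1, at 39.98 ± 1.998 CPM in CCI, against 29.3 ± 2.66 CPM in SHAM (log2 fold change 0.45, adjusted p = 0.0827), and Slc7a2, a transporter of arginine, at 41.2 ± 1.32 CPM in CCI, against 31.4 ± 0.0478 CPM in SHAM (log2 fold change 0.39, adjusted p = 0.0921), with fractional counts. The Reg3b relatives fell below the filter on low counts, were not called with no such filter, and are named outside the rule: Reg1a had 26, 0 and 9 counts in CCI and 0 and 1 in SHAM, Reg3a about 7, 4 and 7 in CCI and 1 and 1 in SHAM, and Reg3g 0, 3 and 4 in CCI and 0 and 0 in SHAM. Reg3a had fractional counts.

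**Figure D4:**
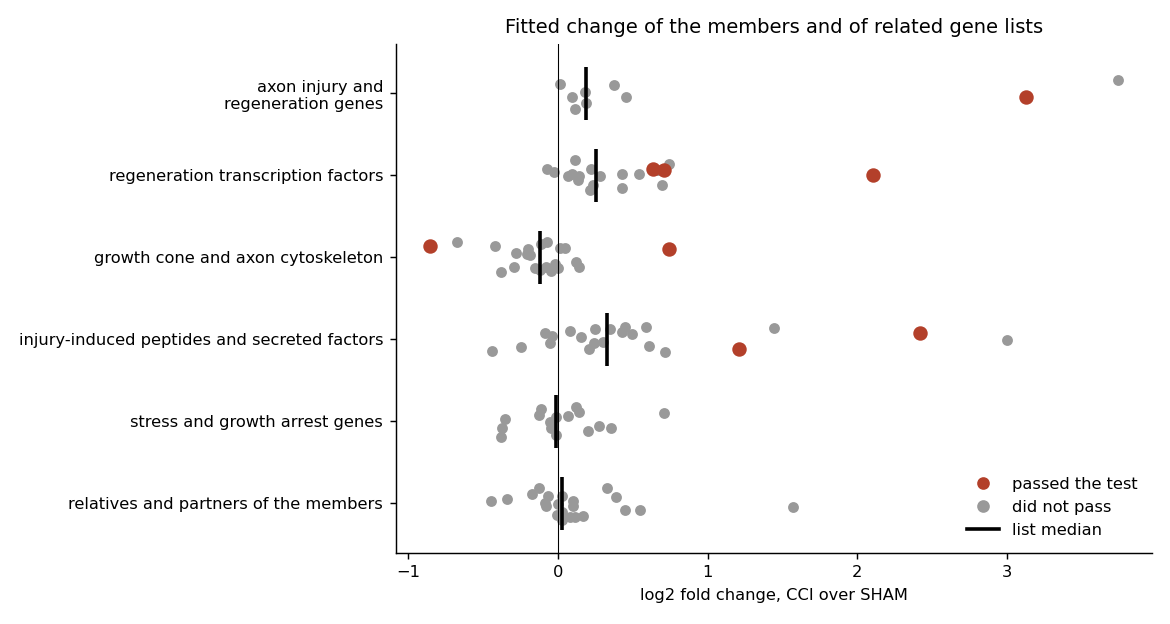
Fitted log2 fold change of CCI over SHAM (horizontal axis) for each tested gene of the members and of 5 related lists, with 1 point per gene, red where it passed the test, and a bar at the list median. Calls are few in each list, and the list medians lie between -0.12 and 0.33.

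Genes were also ranked by how close their profile over the 5 libraries lay to those of Atf3 and Reg3b. Closeness was the root mean square difference of log2(CPM + 1), centred on its mean over the libraries, among 12760 genes with a mean of at least 1 CPM. Closest to Atf3 was Lgals3, galectin-3 of phagocytes, at 40.9, 19.7 and 32.6 CPM in CCI, against 3.50 and 2.80 CPM in SHAM (difference 0.28; log2 fold change 3.29, SE 0.36, adjusted p = 0.00607). Next were Serpina3n, a protease inhibitor of reactive astrocytes (0.40; 20.6, 3.22 and 9.23 CPM in CCI, against 1.27 and 0.80 CPM in SHAM), and Reg3b itself (0.41). Closest to Reg3b were Ccl2, a chemokine that attracts monocytes (0.28; 4.49, 1.51 and 2.12 CPM in CCI, against 0.0455 and 0.45 CPM in SHAM), Mt2A, a metallothionein (0.28; 35.4, 15.7 and 25.9 CPM in CCI, against 7.46 and 9.59 CPM in SHAM), and Socs3 (0.30). Serpina3n had fractional counts. By edgeR's test Serpina3n (adjusted p = 0.216), Ccl2 (adjusted p = 0.0844) and Mt2A (adjusted p = 0.0977) did not pass. Ccl2 had 1 and 9 counts in SHAM 1 and 2.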

How the data were processed

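Per the submitters' processing notes, kallisto 0.44.0 and the build rn6 were used, and the authors deposited the resulting estimated counts by gene. A second deposited table, named TPM, is taken as a signal since its column totals differ; per the labels its TPM values had TMM scaling (trimmed mean of M-values). The annotation is not given in the sources used here. Groups come from the labels; replicates were numbered by accession, so no numbers pair CCI with SHAM.

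Estimated counts were rounded. Of 17321 rows, 13478 remained after filterByExpr with a minimum count of 10. The test was edgeR's quasi-likelihood test (edgeR 4.0.16, R 4.3.3, TMM scaling, robust glmQLFit, then glmQLFTest, two-sided, Benjamini-Hochberg adjustment over all tested genes; 3 residual degrees of freedom). CPM are TMM-scaled. The SE is the log2 fold change over the root of F, and 95% intervals use the moderated degrees of freedom. Of tested genes 20.5% had fractional counts. The test scripts were tested on simulated data. The alternatives were limma-voom (limma 3.58.1), DESeq2 1.42.0, edgeR's likelihood ratio test, RLE and upper quartile scaling, no filter on low counts, ribosomal rows left out, limma on the deposited TPM with a pseudocount of 0.5 or 0.1, the level of 9 Schwann cell markers as a covariate, and each library left out.

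The members and gene lists were chosen with earlier results of these data known. Genes were named by rule: all members, up to 4 called genes of each related list by p or the 2 of lowest p where none was called, 1 defining marker per marker list (that of the Schwann cell list is not reported here), and the 3 closest profiles of Atf3 and Reg3b. Promoters are from RefSeq (GRCr8); none of its coordinates were joined to the count table. Figures were drawn with matplotlib 3.10.9.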

Additional observations from a re-analysis of the deposited data

How the results depend on the processing

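No paired analysis was possible because the labels give no replicate numbers that CCI and SHAM libraries share. The number of members called was 1; it was 2 with the likelihood ratio test, with DESeq2 and with the deposited TPM table at either pseudocount, 0 with limma-voom and with the Schwann cell covariate, and 0 to 3 with 1 library left out. Over all genes 384 were called; the number was 646 with the likelihood ratio test, 614 with DESeq2, 172 with the Schwann cell covariate, and 61 (without SHAM 1) to 763 (without CCI 1) with 1 library left out. Leaving out a SHAM library leaves 1, which is assumed to vary like the CCI libraries. Over all 15 alternatives the log2 fold change was 2.90 to 4.12 for Atf3, which passed in 6 (adjusted p from 5e-12 to 0.454), and 2.68 to 3.72 for Reg3b, which passed in 10 (adjusted p from 1.53e-06 to 0.398). The sign turned for Gadd45a with limma-voom (-0.020), without CCI 1 (-0.21) and without SHAM 2 (-0.12; range with 1 library left out -0.21 to 0.17), for Arg1 without SHAM 1 (-0.041; range -0.041 to 0.22) and for Flrt3 with the Schwann cell covariate (-0.018); the cause was not tested. Gap43, Sox11, Ecel1 and Tnfrsf12a kept a positive sign in all 15, and of these Ecel1 passed in 1. Depth limits Sprr1a and the Reg3b relatives, which rest on few counts.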
